A study of Mus musculus with 60 samples.

Results

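The T cell receptor (TCR) beta clonotypes that were abundant in the spleen libraries labelled before transplantation were followed into the liver and gut of recipient mice on day 6. A clonotype was a row of a deposited table, which is 1 amino acid sequence of complementarity determining region 3 (CDR3). The members were chosen by their Spleen values: a mean over the 3 Spleen libraries above 0.0001, which is 0.01% of reads, and a frequency above 0 in fewer than 13 of the 15 libraries of the table. The rule chose 1883 of 85775 clonotypes in the CD4 table and 1981 of 82447 in the CD8 table, or 3864 of 168222 in all. Each member was assigned to a home genotype, the genotype of the Spleen library in which it was most frequent. Of the CD4 members, 597 had WT, 550 had STAT3ko and 736 had STAT3koPD-1ko as home, and the CD8 numbers were 666, 658 and 657.

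The series asked how loss of STAT3, and of PD-1 together with STAT3, in donor T cells affected their TCR repertoires in graft-versus-host disease. Recipients were lethally irradiated WT BALB/c mice, and all received T cell-depleted bone marrow of WT C57BL/6 donors plus CD90.2+ T cells of WT, STAT3ko or STAT3koPD-1ko donors on the C57BL/6 background. In STAT3ko donors a floxed Stat3 gene was deleted by Cre driven from the Cd4 promoter, which is active in T cells of both lineages, and STAT3koPD-1ko donors lacked PD-1 in addition. Each table held 1 library per genotype labelled Spleen and before HCT (hematopoietic cell transplantation), and 2 libraries per genotype from each of liver and gut on day 6, numbered 1 and 2. A day 6 sample pooled cells of 3 recipients, and ages were not given in the labels. Cells were sorted on the donor molecule H-2Kb, TCR beta and CD4 or CD8. TCR libraries carry no other transcripts, so the sorted cell type could not be checked against marker genes.

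A TCR beta chain is assembled in the thymus by joining a V, a D and a J gene segment, with bases trimmed from and added to the ends, and the CDR3 spans that join. The CDR3 lies over the peptide in the groove of the major histocompatibility complex molecule. Joins with few or no added bases arise often and recur between individuals, whereas joins with many random bases are usually private to an animal. After transplantation across a major histocompatibility barrier, donor T cells that recognise recipient molecules divide, and the frequencies of the clonotypes of the donor spleen change.

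The 8 clonotypes with the highest mean over the Spleen libraries, 4 per table, are shown first because they carried the most reads; 6 of the 8 were above 0 in a single genotype. Here and below the bases are the CDR3 from 5′ to 3′, as listed for a representative of the clonotype, and capitals mark the bases that lie between the end of V and the start of J. A sequence without capitals has V and J segments that meet or overlap as listed. An overlap, listed for 53 CD4 and 70 CD8 members, counts as 0 bases and does not show that a join lacks D or added bases. A CDR3 of up to 14 residues is also named by its amino acids.
CD4, TRBV13-1 with TRBJ1-4, STAT3koPD-1ko home: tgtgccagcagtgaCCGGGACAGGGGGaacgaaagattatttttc
CD4, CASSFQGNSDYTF, TRBV14 with TRBJ1-2, WT home: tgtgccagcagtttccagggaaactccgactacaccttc
CD4, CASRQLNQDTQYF, TRBV13-1 with TRBJ2-5, STAT3ko home: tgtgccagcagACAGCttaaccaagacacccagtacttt
CD4, TRBV16 with TRBJ2-5, WT home: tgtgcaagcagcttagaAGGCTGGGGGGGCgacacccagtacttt
CD8, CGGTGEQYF, TRBV14 with TRBJ2-7, WT home: tgtgGTGGGACTGGGgaacagtacttc
CD8, TRBV16 with TRBJ2-3, WT home: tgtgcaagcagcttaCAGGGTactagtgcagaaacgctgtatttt
CD8, TRBV29 with TRBJ2-5, WT home: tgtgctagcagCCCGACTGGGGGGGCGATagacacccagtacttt
CD8, TRBV29 with TRBJ1-3, WT home: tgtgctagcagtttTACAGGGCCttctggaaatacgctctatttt

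The next 6, 1 per table and home genotype, had the highest minimum over the 4 day 6 libraries of that genotype. They had 0 to 10 bases between V and J.
CD4, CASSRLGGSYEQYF, TRBV14 with TRBJ2-7, WT home: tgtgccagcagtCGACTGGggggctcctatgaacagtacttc
CD4, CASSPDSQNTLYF, TRBV16 with TRBJ2-4, STAT3ko home: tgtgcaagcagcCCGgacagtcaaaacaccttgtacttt
CD4, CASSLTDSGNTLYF, TRBV16 with TRBJ1-3, STAT3koPD-1ko home: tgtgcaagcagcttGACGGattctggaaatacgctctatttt
CD8, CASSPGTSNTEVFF, TRBV29 with TRBJ1-1, WT home: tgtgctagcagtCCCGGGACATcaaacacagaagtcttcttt
CD8, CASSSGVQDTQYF, TRBV29 with TRBJ2-5, STAT3ko home: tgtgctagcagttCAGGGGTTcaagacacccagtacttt
CD8, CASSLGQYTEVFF, TRBV12-2 with TRBJ1-1, STAT3koPD-1ko home: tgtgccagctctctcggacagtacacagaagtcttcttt

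The following 3, all of STAT3ko home, were listed at 0 in all 4 day 6 libraries of that genotype. They had 12 to 15 bases between V and J.
CD4, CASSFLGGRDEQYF, TRBV14 with TRBJ2-7, STAT3ko home: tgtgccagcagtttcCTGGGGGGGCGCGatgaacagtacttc
CD8, TRBV16 with TRBJ2-7, STAT3ko home: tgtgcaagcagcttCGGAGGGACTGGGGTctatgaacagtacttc
CD8, TRBV4 with TRBJ2-3, STAT3ko home: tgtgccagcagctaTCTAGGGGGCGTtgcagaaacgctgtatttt

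The last 3 had the highest mean in the home-genotype libraries numbered 2 and have a CDR3 short enough to name. The first has no base between V and J as listed, and the others have 9 and 2.
CD4, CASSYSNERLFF, TRBV4 with TRBJ1-4, WT home: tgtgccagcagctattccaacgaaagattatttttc
CD8, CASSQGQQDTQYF, TRBV29 with TRBJ2-5, STAT3ko home: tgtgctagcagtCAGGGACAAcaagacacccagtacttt
CD8, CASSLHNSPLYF, TRBV12-2 with TRBJ1-6, STAT3koPD-1ko home: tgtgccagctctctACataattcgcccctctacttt

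Depth is not given in the files, which hold fractions of reads without counts. Listed clonotypes per library ranged from 3418 to 29839, and the libraries of gut numbered 2 listed only 47.8% to 58.0% of their reads, against 81.5% to 98.4% in all others. A fraction of 0 therefore means listed at 0. The join covered 18 libraries, of which 3 were not analysed here, and listed a clonotype only when 2 or more held it. This matters for the members, because 1411 CD4 members (74.9%) and 1551 CD8 members (78.3%) were above 0 in 1 Spleen library only. Such a clonotype is listed only if another library held it, which raises the shares recovered below. Of the CD4 members 31.7%, and of the CD8 members 30.3%, were found in 1 or more of the 3 libraries not analysed here.

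The 2 libraries of each genotype and tissue did not behave as replicates for these clonotypes, so numbers 1 and 2 are given apart. Means over both numbers are also given below, and their SDs hold the gap between the numbers. Tests that permute labels across numbers treat the 2 as exchangeable, which these values do not bear out. In libraries numbered 1, 68.5% to 100% of the members of the same genotype were found, and in libraries numbered 2 they were found about as often as members of other genotypes. Whether number 1 libraries shared animals, a batch or a sequencing run with the Spleen libraries was not given in the sources used here and was not tested.

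In liver, the CD4 members above 0 in the number 1 library of their home genotype were 592 of 597 for WT (99.2%), 428 of 550 for STAT3ko (77.8%) and 736 of 736 for STAT3koPD-1ko (100%). In the number 2 libraries the same shares were 24.8%, 18.7% and 13.2%. The 3 number 1 values lay far above the 3 number 2 values. Among all listed CD4 clonotypes of a Spleen library, 73% were above 0 in the home-genotype liver library numbered 1 and 16% in that numbered 2. The members exceeded the first background, at 93.3% pooled over the 3 genotypes, and lay near the second, at 18.5%. In liver libraries of other genotypes, members were found at 16.9% for number 1 (background 10.5%) and at 18.7% for number 2 (background 15.6%).

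CD8 members showed a similar order in liver. The home-genotype number 1 libraries held 99.8% of WT, 72.6% of STAT3ko and 99.8% of STAT3koPD-1ko members, and the number 2 libraries held 19.2%, 16.4% and 20.2%. STAT3ko was the lowest of the 3 number 1 liver libraries in both tables. The pooled shares were 90.8% for number 1 against a background of 79.9%, and 18.6% for number 2 against a background of 15.2%. In libraries of other genotypes they were 16% (background 10.6%) and 18.4% (background 15.3%).

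In gut the number 1 libraries again stood apart. They held 86.8% of WT, 79.8% of STAT3ko and 68.5% of STAT3koPD-1ko CD4 members, and the number 2 libraries held 15.7%, 6.18% and 5.57%. Pooled, the CD4 shares were 77.6% (background 58%) and 8.98% (background 8.07%) in the home genotype. The same members were found at 20.05% (background 16.7%) and 8.58% (background 7.61%) in the gut of other genotypes. CD8 members were found at 89.5%, 91.0% and 70.3% in number 1 and at 18.02%, 12.3% and 19.2% in number 2. The pooled CD8 values were 83.6% (background 70.9%) and 16.5% (background 14.7%) for the home genotype, and 25.4% (background 19.5%) and 17.7% (background 14.9%) for other genotypes. STAT3koPD-1ko had the lowest share of the 3 number 1 gut libraries in both tables.

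**Figure D1:**
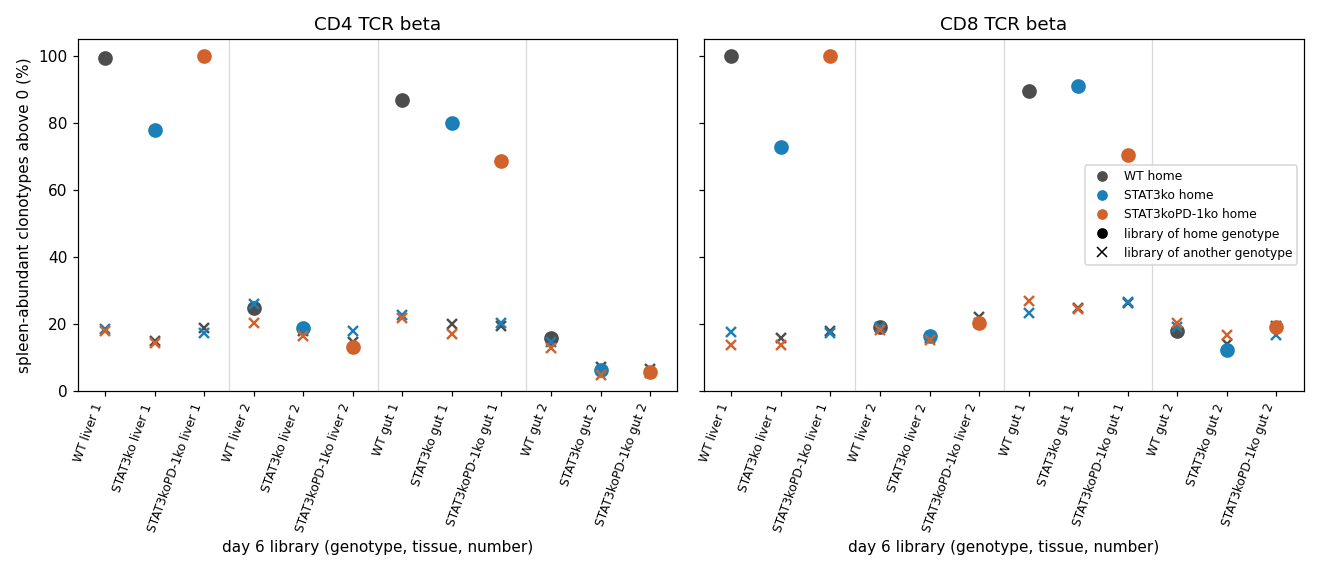
Share of the spleen-abundant clonotypes of each home genotype (colour) above 0 in each of the 12 day 6 libraries, in percent of members, for CD4 (left) and CD8 (right). Circles are libraries of the home genotype and crosses those of another genotype; the circles lie from 68.5% to 100% in libraries numbered 1 and among the crosses, between 5.57% and 24.8%, in libraries numbered 2.

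Own minus other is the share of home members found in a library minus the share of members of other home genotypes found there, averaged over the 6 libraries of a tissue. It was 37.8 ± 41.7 percentage points (SD, n = 6) for CD4 liver, higher in 5 of 6 libraries, with p = 0.0444 when the genotype labels were permuted over all 90 arrangements (exact, two-sided) and an adjusted p of 0.0593 over 4 tests. For CD4 gut it was 29.5 ± 32.0 points, positive in 5 of 6 libraries, with an exact p of 0.0111 and an adjusted p of 0.0444. CD8 liver gave 37.5 ± 41.9 points in 5 of 6 libraries with an exact permutation p of 0.0333 and an adjusted p of 0.0593. CD8 gut gave 28.5 ± 33.5 points in 4 of 6 libraries with an exact permutation p of 0.0667 and an adjusted p of 0.0667. These p-values carry no call, because the listing rule favours own over other in all 4 tests: a member of 1 Spleen library needs another library to be listed, and 1047 CD4 members (55.6%) were in no day 6 library of another genotype. Even so, the adjusted p of CD4 gut did not hold below 0.05 without any 1 of its 6 libraries (0.0593, with 22.4 to 35.5 points) or with labels permuted within a number (the replicate block, adjusted p 0.111 by exact permutation). With recovery defined as above 0.01% of reads, the difference fell to 5.46 points in CD4 gut and 7.36 in CD8 gut, and in the top 3000 clonotypes to 9.72 and 10.1. By exact permutation the adjusted p of CD8 gut was then 0.0148 and 0.0444.

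Members above 0 in 2 or more Spleen libraries, 472 in CD4 (25.1%) and 430 in CD8 (21.7%), are listed whatever the day 6 libraries hold. Among them own minus other was 19.6 ± 24.1 points in CD4 liver, 15.3 ± 16.5 in CD4 gut, 20.8 ± 23.5 in CD8 liver and 13.03 ± 15.9 in CD8 gut (SD, n = 6), and was positive in 4, 5, 5 and 4 of 6 libraries. The exact two-sided permutation p ranged from 0.0222 to 0.0556 and every adjusted p was 0.0556, so none passed the threshold. Within number 1 these differences were 40.2 ± 11.6, 29.8 ± 3.90, 40.5 ± 14.2 and 27.3 ± 3.76 points (SD, n = 3), and within number 2 they ran from -1.25 to 1.01. In CD4 liver 1, for example, 90.8% of home members and 50.6% of the others were found on average. This choice of members was added after the data were seen.

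Over all members the SDs of this difference were as large as its means because numbers 1 and 2 differed. Within number 1 the difference was 75.4 ± 10.5 points (SD, n = 3) in CD4 liver, 58.3 ± 8.47 in CD4 gut, 74.8 ± 14.7 in CD8 liver and 58.2 ± 12.5 in CD8 gut, and it was positive in 3 of 3 libraries each time. Within number 2 it was 0.30 ± 2.83, 0.64 ± 1.31, 0.20 ± 0.97 and -1.19 ± 2.07 points. The 6 arrangements of labels within a number cannot give an exact permutation p below 0.167, so neither number can pass a test alone. Over all members, own was above other in 12 of 12 libraries numbered 1, where the listing rule acts most, and in 7 of 12 numbered 2.

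Number 1 exceeded number 2 in the share of home members found by 73.4 points in CD4 liver, where number 1 had a mean of 92.3% ± 12.6 and number 2 of 18.9% ± 5.81 (SD, n = 3 each). In CD4 gut the difference was 69.2 points, in CD8 liver 72.2 points and in CD8 gut 67.1 points. The gut differences depended on what counts as found: above 0.01% of reads they were 10.8 points in CD4 and 13.2 in CD8, and in the top 3000 clonotypes of a library 17.2 and 19.0, while those of liver were 63.6 and 64.7 points by the first definition and 69.996 and 68.97 by the second. The values of the 2 numbers did not overlap in any of these 4 comparisons, and the listing rule raises the number 1 values where that library is the one that put a member in the table. Among members of 2 or more Spleen libraries, where that does not apply, the differences were 48.5 and 61.3 points in CD4 liver and gut and 49.6 and 53.8 in CD8. Each exact two-sided permutation p was 0.1, the smallest that 3 against 3 allows.

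Clonotypes of a single Spleen library are the ones that needed another library to be listed, often the home-genotype library numbered 1, so their shares are given as a description and support nothing. Of the 444 CD4 members found only in WT spleen among the Spleen libraries, 99.3% were above 0 in WT liver 1 and 13.3% in WT liver 2. For STAT3ko these shares were 79.3% and 11.6% of 406 members, and for STAT3koPD-1ko 100% and 8.02% of 561. Single-library members of the other genotypes were found at 4.08% to 6.71% in the CD4 liver libraries numbered 1.

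Liver and gut did not differ past the threshold in the share of home members found. It averaged 55.6% ± 41.2 in liver and 43.8% ± 38.5 in gut for CD4 (SD, n = 6 each), a difference of 11.9 points with an exact two-sided permutation p of 0.580 and an adjusted p of 0.749. For CD8 the means were 54.7% and 50.1%, the difference 4.64 points, and the exact permutation p and adjusted p 0.749. The labels were permuted across numbers 1 and 2, and with liver and gut paired by genotype and number the exact permutation p was 0.0625 (adjusted p 0.125) for CD4 and 0.531 for CD8. Counting only members above 0.01% of reads as found, liver exceeded gut by 28.0 points in CD4 and 26.4 in CD8, and in the top 3000 clonotypes by 26.2 and 23.7, with adjusted p from 0.145 to 0.195 by exact permutation. Liver was higher than the gut library of the same genotype and number in 5 of 6 pairs in each table, and the exception was STAT3ko number 1 both times. In STAT3ko, 103 CD4 and 167 CD8 members were above 0 in gut 1 but not in liver 1, while in WT and STAT3koPD-1ko together there were 5 CD4 and 2 CD8 members of this kind. STAT3koPD-1ko had the most members in liver 1 but not in gut 1, at 232 of 736 CD4 and 195 of 657 CD8 members.

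Genotypes did not differ past the threshold in the share of home members found in their own 4 day 6 libraries, with numbers 1 and 2 pooled. In CD4, WT averaged 56.6% ± 42.4, STAT3ko 45.6% ± 38.7 and STAT3koPD-1ko 46.8% ± 45.2 (SD, n = 4). For CD8 they were 56.6% ± 44.1, 48.1% ± 39.7 and 52.4% ± 39.6. STAT3ko was lower than WT by 10.98 points in CD4 (4 of 4 libraries matched by tissue and number) and by 8.54 points in CD8 (3 of 4). Counted above 0.01% of reads the difference was -0.73 points in CD4 and -4.25 in CD8, in the top 3000 clonotypes -2.96 and -4.61, and without a WT library numbered 1 or a STAT3ko library numbered 2 its sign turned, to at most 7.61 and 11.6 points. STAT3koPD-1ko differed from WT by -9.81 points in CD4 and -4.25 in CD8, and from STAT3ko by 1.17 and 4.30 points. The exact two-sided permutation p within tissue ranged from 0.556 to 1 over these 6 comparisons, every adjusted p was 1, and 36 arrangements cannot give less than 0.0556. These labels were permuted across numbers 1 and 2, whose gap widens the spread. Permuted within tissue and number, STAT3ko minus WT had an exact p of 0.125 in CD4, the smallest that 16 arrangements allow. In CD8 it was 0.25, and every adjusted p was 0.5 or more. These members differ between genotypes, since each genotype was scored on its own Spleen library.

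Frequency fell from spleen to day 6, which the choice by a high Spleen value partly fixes, so only the differences among day 6 libraries are informative. The WT home members summed to 42.5% of reads in WT CD4 spleen, 13.8% in WT liver 1, 0.80% in liver 2, 3.37% in gut 1 and 1.09% in gut 2. The STAT3ko members summed to 38.6%, 16.7%, 0.77%, 2.74% and 0.33% in the same order in STAT3ko libraries. The STAT3koPD-1ko members summed to 52.1%, 28.0%, 0.72%, 2.48% and 0.65%. Liver 1 thus held 32.5%, 43.3% and 53.7% of the summed Spleen frequency, and gut 1 held 7.94%, 7.08% and 4.75%. Liver 1 lay above gut 1 in each genotype, with no overlap between the tissues, and this contrast of sums was not tested.

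For CD8 the summed frequency fell from 58.3% to 19.6% in WT liver 1, from 42.9% to 16.4% in STAT3ko liver 1 and from 35.9% to 14.9% in STAT3koPD-1ko liver 1. Gut 1 held 4.71%, 4.83% and 1.83% of reads. In number 2 liver libraries the home members summed to 1.03%, 1.11% and 0.71%. As a share of the summed Spleen frequency, CD8 liver 1 held 33.5%, 38.1% and 41.4%. These shares divide by the Spleen values that chose the members, and in reads the order of the 3 genotypes was the reverse. The libraries numbered 2 held 0.87% to 2.60% of it over both tables and tissues, close to what members gave in libraries of other genotypes.

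**Figure D2:**
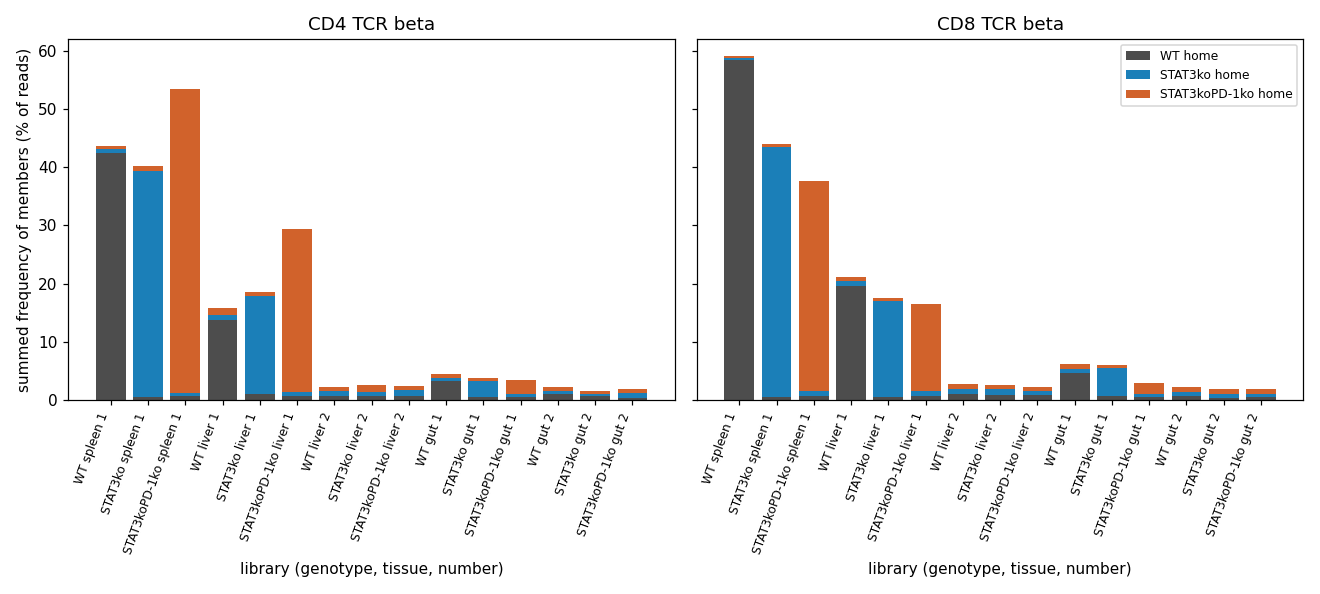
Summed frequency of the spleen-abundant clonotypes in each of the 15 libraries, in percent of reads, stacked by home genotype (colour), for CD4 (left) and CD8 (right). The own-genotype part is 35.9% to 58.3% (CD8) or 38.6% to 52.1% (CD4) in spleen, 13.8% to 28.0% in liver libraries numbered 1, 1.83% to 4.83% in gut libraries numbered 1, and at most 1.11% in libraries numbered 2.

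Single clonotypes varied widely around these sums. Liver 1 frequency divided by Spleen frequency had a median of 0.233 in WT, 0.302 in STAT3ko and 0.473 in STAT3koPD-1ko CD4 members, and of 0.286, 0.269 and 0.350 in CD8. The median ratio for gut 1 was 0.0251 to 0.0683 over both tables. More frequent in liver 1 than in their own spleen were 42 WT (7.04%), 88 STAT3ko (16%) and 133 STAT3koPD-1ko (18.1%) CD4 members, and 46, 76 and 72 CD8 members. In gut 1, 3 CD4 and 10 CD8 members were more frequent than in spleen. These ratios and counts use the Spleen values that chose the members, and no share over all listed Spleen clonotypes is given beside them. They therefore do not rank the genotypes or set the members apart. Spleen and liver 1 frequency were weakly related across members, with Spearman's rho from 0.14 to 0.39 over the 6 sets of 550 to 736 clonotypes, and rho was -0.07 to 0.07 for liver 2. These are descriptions across clonotypes that share libraries, and members at 0 are included.

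**Figure D3:**
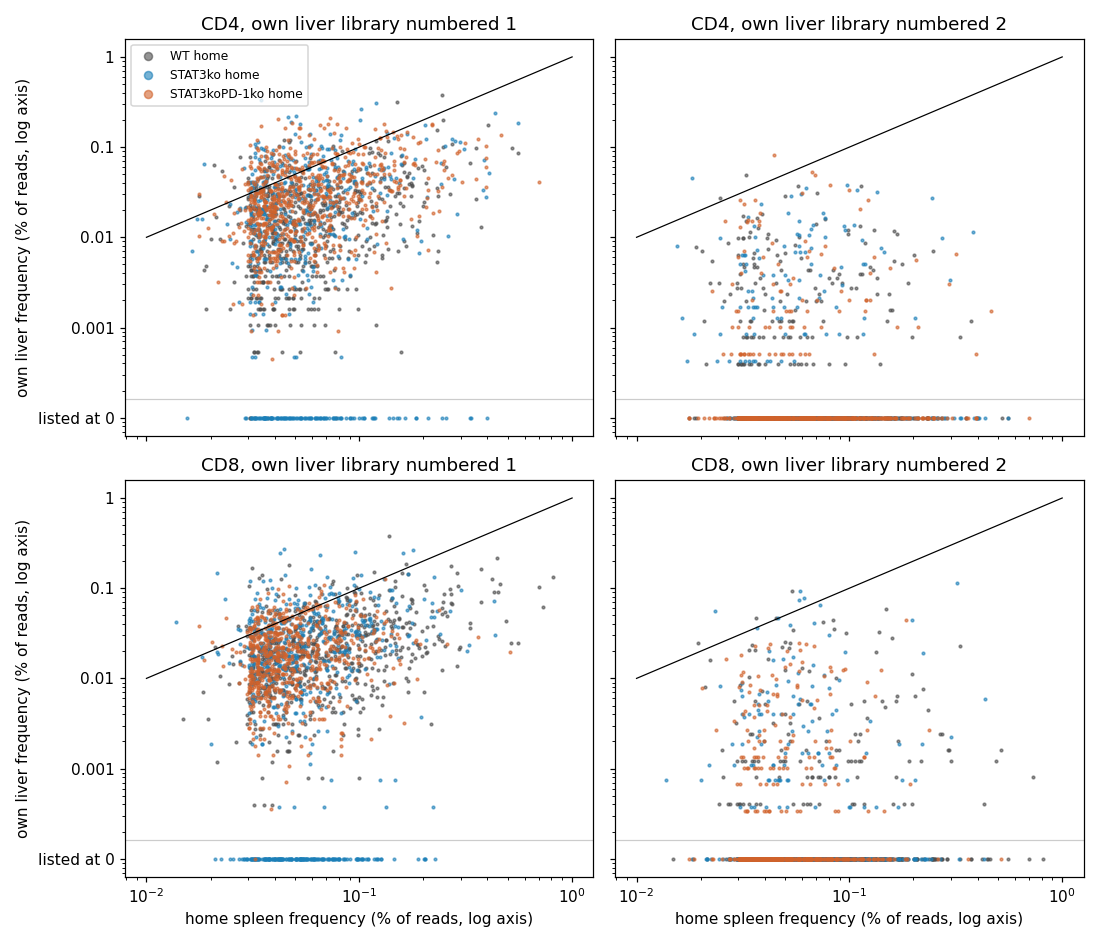
Frequency of each member in its home spleen (x axis, percent of reads, log scale) against its frequency in the liver library of the same genotype numbered 1 (left) or 2 (right), on a log scale with clonotypes listed at 0 drawn below the grey line. The diagonal marks equal frequency: 263 of 1883 CD4 and 194 of 1981 CD8 members lie above it for number 1, and 4 and 9 for number 2. No share over all listed Spleen clonotypes is given beside these counts.

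Outside liver 1, members found were mostly at low frequency, in their own genotype and in others. The median frequency of CD4 members found in liver 1 of their home genotype was 0.0145% (WT), 0.0264% (STAT3ko) and 0.0270% (STAT3koPD-1ko). In liver 2 and both gut libraries of the home genotype, over both tables, the medians ran from 0.0018% to 0.0051%. In the day 6 libraries of other genotypes, the 48 medians of members found, 1 per table, library and home genotype, ran from 0.00185% to 0.00781%. Single members were higher, such as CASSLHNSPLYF of STAT3koPD-1ko home at 0.0688% in WT gut 2 and a TRBV26 clonotype of STAT3ko home at 0.0523% in STAT3koPD-1ko gut 1. Among the 100 most frequent clonotypes of the CD4 liver 1 libraries, 35 in WT, 44 in STAT3ko and 68 in STAT3koPD-1ko were home members, and 6, 4 and 1 were members of other genotypes. The CD8 counts were 36, 34 and 45 home members and 3, 0 and 2 others. In the liver libraries numbered 2 there were 0, 0 and 0 home members and 2, 4 and 3 others for CD4, and 1, 3 and 0 home members and 2, 1 and 2 others for CD8. In gut 1 the home members were 10, 4 and 1 for CD4 and 8, 7 and 0 for CD8, and the others 2, 1 and 3 and 1, 2 and 0. In gut 2 there were 5, 1 and 1 home members and 1, 4 and 1 others for CD4, and 1, 3 and 1 home members and 3, 1 and 0 others for CD8. The part of the top 100 made up by all listed Spleen clonotypes of a genotype is not given. Home members also differed in number between genotypes (597, 550 and 736 in CD4), so these counts do not rank the genotypes.

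Of the most abundant members, the CD4 clonotype of TRBV13-1 with TRBJ1-4 stood at 0.696% in STAT3koPD-1ko spleen, 0.0412% in liver 1 and 0.00493% in gut 1 of the same genotype. It was listed at 0 in the other 12 libraries. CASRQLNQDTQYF, also on TRBV13-1, was at 0.556% in STAT3ko spleen and 0.184% in liver 1 but at 0.000641% in gut 1, and was listed at 0 elsewhere. The WT clonotype of TRBV16 with TRBJ2-5 went from 0.522% in spleen to 0.0971% in liver 1 and 0.0015% in gut 1. These 3 joins, with 5 to 13 bases between V and J, were each found in a single genotype.

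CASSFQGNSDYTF, which has no bases between V and J as listed, was less private. It was at 0.559% in WT spleen, 0.0864% in WT liver 1 and 0.0150% in WT gut 1, at 0.000463% in STAT3koPD-1ko spleen, at 0.000848% in STAT3ko liver 2 and at 0.000641% in STAT3ko gut 1. It was listed at 0 in the other 9 libraries, among them WT liver 2 and WT gut 2. All 4 leading CD4 members were listed at 0 in both number 2 tissues of their own genotype.

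The 4 leading CD8 members were all of WT home. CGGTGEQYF, a short CDR3 that keeps only the first bases of TRBV14, was at 0.813% in WT spleen, 0.132% in WT liver 1 and 0.00769% in WT gut 1 and at 0 elsewhere. The clonotype of TRBV29 with TRBJ2-5, with 18 bases between V and J, was at 0.696%, 0.103% and 0.00315% in the same libraries. That of TRBV29 with TRBJ1-3 was at 0.558%, 0.0249% and 0.0014%. None of these 3 was above 0 in a number 2 library or in another genotype. The clonotype of TRBV16 with TRBJ2-3 was above 0 in 8 libraries, at 0.732% in WT spleen, 0.0619% in WT liver 1, 0.000801% in liver 2, 0.00629% in gut 1 and 0.000353% in gut 2. Its values in other genotypes were at most 0.00304%.

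Members above 0 in all 4 home-genotype libraries numbered 78 in CD4 (56 WT, 9 STAT3ko and 13 STAT3koPD-1ko) and 136 in CD8 (56, 27 and 53). Ranked by their lowest value there, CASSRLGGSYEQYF led the WT CD4 members, at 0.162% in spleen, 0.0526% and 0.0118% in liver 1 and 2, and 0.0250% and 0.0192% in gut 1 and 2. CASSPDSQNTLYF led those of STAT3ko, at 0.0356% in spleen, 0.0360% and 0.0132% in liver, and 0.0154% and 0.0120% in gut. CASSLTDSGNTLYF led those of STAT3koPD-1ko, at 0.0333% in spleen, 0.0140% and 0.0156% in liver, and 0.0173% and 0.0286% in gut. These clonotypes also occurred in 3, 5 and 5 of the 8 day 6 libraries of other genotypes. The counts of 78 and 136 members are a description, because the share over all listed Spleen clonotypes is not given.

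In CD8, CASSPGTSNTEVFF was at 0.0497% in WT spleen, 0.0557% and 0.0252% in WT liver, and 0.0517% and 0.0258% in WT gut. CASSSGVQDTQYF was at 0.0800% in STAT3ko spleen, 0.0877% and 0.00780% in liver, and 0.0137% and 0.01% in gut. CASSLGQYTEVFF, without a base between V and J as listed, was at 0.0432% in STAT3koPD-1ko spleen, 0.0113% and 0.0108% in liver, and 0.0176% and 0.0125% in gut. Each was also above 0 in 5 of the 8 day 6 libraries of other genotypes.

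Listed at 0 in all 4 libraries of their home genotype were 12 CD4 and 12 CD8 members, all 24 of STAT3ko home. The listing rule largely fixes this low count, because a clonotype of 1 Spleen library that no other library held is not in the tables, so the count is not the number of clonotypes lost by day 6. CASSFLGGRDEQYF, at 0.154% in STAT3ko spleen and 0.00741% in STAT3koPD-1ko spleen, was in no day 6 library. The CD8 clonotype of TRBV16 with TRBJ2-7, at 0.127% in STAT3ko spleen, was found on day 6 only in WT, at 0.0140% in liver 2 and 0.000349% in gut 1. That of TRBV4 with TRBJ2-3, at 0.0767% in STAT3ko spleen, was likewise found in WT only, at 0.00120% in liver 2 and 0.00384% in gut 1.

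High values in libraries numbered 2 were found for a few members. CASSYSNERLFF was at 0.107% in WT CD4 spleen, 0.00912% in liver 1, 0.00275% in liver 2, 0.00250% in gut 1 and 0.406% in gut 2. A STAT3koPD-1ko CD4 member of TRBV26 with TRBJ1-4, whose listed CDR3 of 35 residues does not begin with C, was at 0.0597% in spleen, at 0 in liver 2 and at 0.241% in gut 2. In CD8, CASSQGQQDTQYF was at 0.320% in STAT3ko spleen, 0.0201% in liver 1, 0.115% in liver 2, 0.117% in gut 1 and 0 in gut 2. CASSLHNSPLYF was at 0.0497% in STAT3koPD-1ko spleen, 0.0373% in liver 1, 0.00169% in liver 2, 0.0162% in gut 1 and 0.107% in gut 2, and at 0.0688% in WT gut 2. Each of these values was thus high in 1 or 2 libraries rather than in both tissues of number 2.

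The threshold falls within a continuum. Just inside it were a TRBV26 clonotype and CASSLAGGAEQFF in CD4, with Spleen means of 0.010006% and 0.010023%, and just outside were a TRBV1 clonotype and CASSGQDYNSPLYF, both at 0.01%. In CD8 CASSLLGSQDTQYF, at 0.010053%, and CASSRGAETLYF, at 0.010055%, were just inside, and a TRBV14 clonotype at 0.009955% and a TRBV1 clonotype at 0.009933% were just outside. Another 146 CD4 and 279 CD8 clonotypes passed the Spleen threshold but were above 0 in 13 or more libraries and were left out by the rule.

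The joins found in other genotypes had fewer bases between V and J. In each of the 12 day 6 libraries of both tables, members of other genotypes that were found had a lower mean number of these bases than those listed at 0. The mean difference was -2.21 ± 0.17 bases in CD4 number 1 and -2.25 ± 0.22 in number 2 (SD, n = 6 libraries each). In CD8 it was -1.77 ± 0.17 and -1.89 ± 0.24. The CDR3 of those found was also shorter in every one of these libraries, by 0.47 and 0.49 residues on average in CD4 and by 0.48 and 0.53 in CD8. Libraries share members, so these values are descriptions.

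The home-genotype libraries numbered 2 gave the same size of difference, -2.26 ± 0.42 bases in CD4 and -1.94 ± 0.41 in CD8 (SD, n = 6). In number 1 liver and gut libraries with more than 5 members listed at 0, it was -0.78 ± 0.59 in CD4 and -0.65 ± 0.60 in CD8 (SD, n = 4). Found members thus had fewer bases between V and J than those at 0 by a similar amount in number 2 of the home genotype and in other genotypes, and by less in number 1 of the home genotype.

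Sorted by the number of other-genotype day 6 libraries in which they were found, 1047 CD4 members (55.6%) were in none and had a median of 9 bases between V and J. The 234 in 1 library had 7, the 319 in 2 to 3 libraries had 7, and the 283 in 4 to 8 libraries had 6. In CD8 the medians were 10 bases for 1020 members (51.5%), then 8 for 222, 8 for 353 and 6 for 386. Members found in 4 to 8 such libraries were in more than 1 Spleen library in 76.7% of cases in CD4 and 61.7% in CD8, against 3.82% and 2.25% of those found in none. Their Spleen frequency was alike, with medians of 0.0501% against 0.0514% in CD4 and 0.0514% against 0.0484% in CD8.

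**Figure D4:**
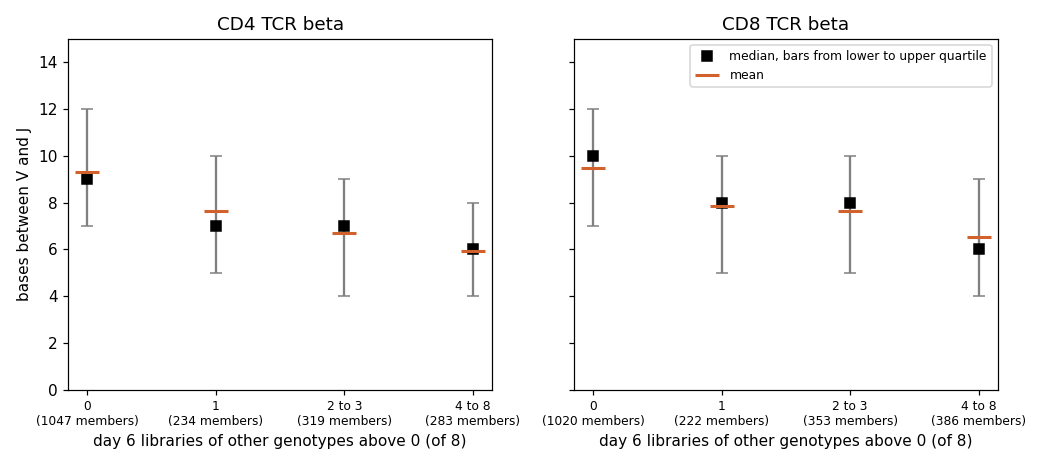
Bases between V and J for members grouped by how many of the 8 day 6 libraries of other genotypes held them (x axis), for CD4 (left) and CD8 (right). Squares are medians with bars from the lower to the upper quartile over members and orange lines are means; the median falls from 9 to 6 bases in CD4 and from 10 to 6 in CD8.

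Because the listing rule leaves few members at 0 in all home-genotype libraries, those found in a home-genotype library numbered 2 were compared with those found in number 1 only, a split chosen after the values were seen. The former were 428 of 1883 CD4 members (22.7%) and 552 of 1981 CD8 members (27.9%). They had 6.402 ± 3.60 bases between V and J in CD4, against 8.66 ± 4.14 for the 1443 found in number 1 only, and 6.95 ± 3.86 against 8.95 ± 4.22 in CD8 (SD over clonotypes). Their CDR3 had a median of 13 residues, against 14, in both tables. In CD4 45.1% of them were in a single Spleen library, against 83.9%, and in CD8 54.0%, against 87.8%. Their median Spleen frequency was 0.0492% against 0.0506% in CD4 and 0.0505% against 0.0493% in CD8.

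Members of the 2 tables used different V segments. In CD4, TRBV16 gave 352 members (18.7%), TRBV13-1 210 (11.2%) and TRBV5 206 (10.9%), while TRBV29 gave 78 (4.14%). In CD8, TRBV29 gave 471 members (23.8%), TRBV13-1 199 (10.05%) and TRBV14 141 (7.12%), while TRBV16 gave 100 (5.05%). Among all listed clonotypes TRBV16 made up 9.92% in CD4 and TRBV29 11.4% in CD8, so both were more frequent among members. TRBV26 was the reverse, at 2.02% of CD4 members and 20.8% of all listed CD4 clonotypes. TRBV26 members numbered 38 in CD4 and 16 in CD8, as many as the members whose CDR3 did not run from C to F. Only 33096 of the 85775 listed CD4 clonotypes were above 0 in a Spleen library, so these contrasts are not among Spleen clonotypes alone. These segments lie on mouse chromosome 6 in GENCODE vM21 (build mm10, forward strand): TRBV13-1 at chr6:41116007-41116468, TRBV14 at chr6:41135145-41135616, TRBV16 at chr6:41151740-41152230, TRBV26 at chr6:41227505-41227993 and TRBV29 at chr6:41271394-41271881. The most used J segment was TRBJ2-7, with 342 CD4 (18.2%) and 500 CD8 members (25.2%).

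**Figure D5:**
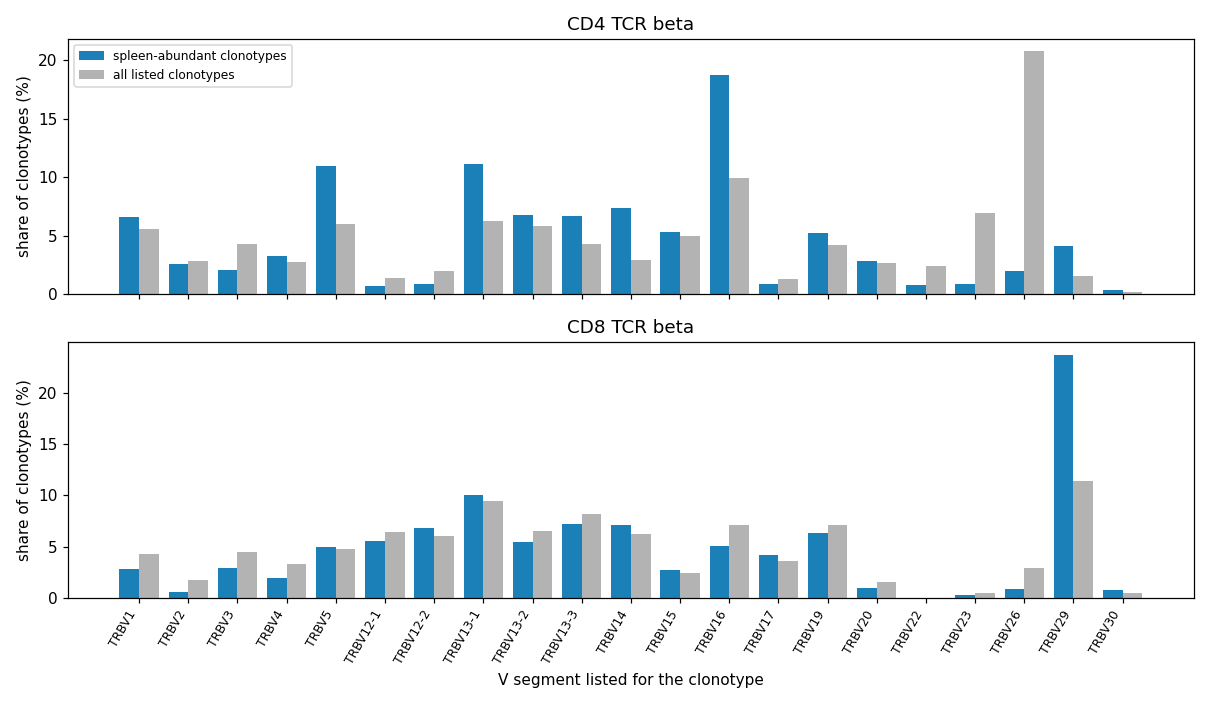
Share of the spleen-abundant clonotypes (blue) and of all listed clonotypes (grey) with each V segment, in percent of clonotypes, for CD4 (top) and CD8 (bottom). TRBV16 reaches 18.7% of CD4 members and TRBV29 23.8% of CD8 members, and TRBV26 makes up 20.8% of all listed CD4 clonotypes but 2.02% of members.

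Segments whose products BALB/c mice delete through endogenous superantigens, TRBV26, TRBV12-1, TRBV12-2, TRBV16 and TRBV15, were listed for 520 CD4 members (27.6%) and 414 CD8 members (20.9%), against 39.1% and 24.8% of all listed clonotypes. The segments of the list did not go the same way in CD4. TRBV26 (2.02% against 20.8%), TRBV12-1 (0.69% against 1.40%) and TRBV12-2 (0.90% against 2.00%) were below their share of all listed clonotypes. TRBV16 (18.7% against 9.92%) and TRBV15 (5.31% against 4.96%) were above it. Members of the list were found in a home-genotype number 2 library in 32.1% of cases in CD4 and 32.6% in CD8, against 22.7% and 27.9% of all members. Their summed frequency in liver 1, as a share of that in spleen, was 32.8% in WT, 40.7% in STAT3ko and 49.9% in STAT3koPD-1ko CD4, where all members gave 32.5%, 43.3% and 53.7%. In CD8 the values were 29.3%, 33.8% and 36.1%, where all members gave 33.5%, 38.1% and 41.4%. The list was below all members in 5 of these 6 liver libraries and above them in 6 of 6 gut libraries numbered 1, where it held 9.96%, 7.24% and 4.83% in CD4 and 8.16%, 12.6% and 6.21% in CD8, and all members 7.94%, 7.08% and 4.75% and 8.07%, 11.3% and 5.09%. Single segments varied within the list. The median ratio of liver 1 to Spleen frequency in CD4 was 0.334 for all members. It was 0.114 for TRBV12-1, 0.159 for TRBV26, 0.313 for TRBV15, 0.347 for TRBV16 and 0.392 for TRBV12-2.

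Segments used by invariant natural killer T cells, TRBV13-1, TRBV13-2, TRBV13-3, TRBV29 and TRBV1, which conventional T cells use too, were listed for 664 CD4 members (35.3%) and 976 CD8 members (49.3%), against 23.4% and 39.9% of all listed clonotypes. Of these, 17.3% in CD4 and 28.4% in CD8 were found in a home-genotype number 2 library. They kept 34.4%, 46.8% and 54.4% of their summed frequency in CD4 liver 1 and 33.7%, 41.4% and 43.7% in CD8, in the order WT, STAT3ko and STAT3koPD-1ko. The list was above all members in each of these 6 libraries and in 4 of 6 in gut 1, where it held 7.66%, 8.19% and 5.38% in CD4 and 8.12%, 11.96% and 4.91% in CD8. Clonotypes with a J segment of the TRBJ1 cluster were 33.7% of CD4 and 29.1% of CD8 members, and were found in number 2 in 22.4% and 26.0% of cases, against 22.9% and 28.6% for TRBJ2.

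Members of a table were also looked up in the table of the other cell type. Of the CD8 members, 16.8% of WT, 15.05% of STAT3ko and 21.8% of STAT3koPD-1ko home were above 0 in the CD4 spleen library of that genotype, against 11.6%, 9.45% and 6.57% of the CD8 members of other genotypes. The home share was higher in 3 of 3 Spleen libraries. In CD4 liver 1 it was higher only in STAT3koPD-1ko, at 15.8% against 8.31%. CD4 members in the CD8 spleen gave 8.88%, 13.3% and 9.92% for the home genotype against 7.93%, 9.90% and 10.1%. The part of sorting and of CDR3 shared between lineages in these values was not tested. In all, 29 CDR3s were members in both tables, which is 1.54% of the CD4 and 1.46% of the CD8 members, and 7 of them had the same home genotype in both.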

How the data were processed

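Donor CD4 and CD8 T cell RNA was amplified with a 5′ template-switching TCR kit, sequenced as paired reads, and called with MiXCR; the authors joined libraries by CDR3 amino acid sequence with VDJtools. The deposited values are clonotype frequencies, each a read fraction within its library that was formed before the join. V, J and bases come from 1 representative per CDR3. The TCR alpha tables were not used. The deposited columns of V, D and J positions and of the number of libraries (units other than a fraction) served for the bases between V and J, counted as 0 where V and J overlap, and for the listing check; 38 CD4 and 16 CD8 members whose CDR3 did not run from C to F were left out of CDR3 values. Found means a frequency above 0. Transcripts per cell can differ, so a fraction of reads is not one of cells.

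Libraries were grouped by their labels. That same-numbered libraries came from separate animals is not stated, and the batches that the methods mention are not matched to numbers, so p-values measure only the spread between these libraries. Exact two-sided permutation tests were run in Python 3.11.15 with numpy 2.4.6 and adjusted by the Benjamini-Hochberg method within 4 own minus other, 4 number, 2 tissue and 6 genotype tests; the code was tested on simulated data. Named members were, per table, the 4 highest Spleen means, the 2 per home genotype with the highest lowest value over the 4 home-genotype day 6 libraries, the 2 per home genotype highest in spleen but at 0 in those 4, the 2 highest in number 2, and the 2 rows on each side of the threshold. The members and lists were chosen with earlier results of these data known. By name, all 21 V segments of members matched GENCODE vM21.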

Additional observations from a re-analysis of the deposited data

How the results depend on the processing

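The own minus other difference kept its sign under every alternative but CD8 gut with libraries numbered 2 only (-1.19 points), an alternative chosen after seeing the data. Where a p-value below passes the threshold it carries no call, because the listing rule favours own over other. Among members of 2 or more Spleen libraries, where that rule does not act, every adjusted p by exact permutation was 0.0556. CD4 gut was the only result past the threshold, and its adjusted p rose above it with a Spleen threshold of 5e-05 (27.7 points), members of 1 Spleen library (34.2), found above 1e-05 (25.4) or 0.0001 (5.46), the replicate block, which permutes labels within a number (29.5, adjusted p 0.111), number 1 only (58.3), number 2 only (0.64), members of 2 or more Spleen libraries (15.3, an alternative chosen after seeing the data), and without the home members of any 1 Spleen library (28.1 to 31.1, adjusted p 0.667 from 6 arrangements). The other own minus other results passed under some settings. CD8 liver passed at a Spleen mean above 0.0002 (38.4), without the column limit (33.5), above 0.0001 (33.0) and in the top 3000 clonotypes (34.9). CD4 liver passed without the column limit (35.3), above 0.0001 (32.4) and in the top 3000 (35.6) and without STAT3ko liver replicate 2 (45.1, adjusted p 0.0444), and CD8 gut above 0.0001 (7.36) and in the top 3000 (10.1). The causes were not tested, and adjusted p over these alternatives ran from 0.0148 to 1.

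Found above 0.0001, STAT3koPD-1ko minus WT in CD4 turned to 3.12 points and STAT3koPD-1ko minus STAT3ko in CD8 to -0.043; in the top 3000 they were 1.48 and -0.27. Leaving out 1 library, or the home members of 1 Spleen library, leaves numbers 1 and 2 unbalanced. It gave 29.04 to 46.0 points for own minus other in CD4 liver, 22.4 to 35.5 in CD4 gut, 28.1 to 45.2 in CD8 liver and 20.9 to 34.8 in CD8 gut. Number 1 minus number 2 ranged from 66.7 to 80.7, 65.0 to 74.1, 67.6 to 81.2 and 61.3 to 75.1 in the same order. Found above 0.0001 or in the top 3000, the gut values of number 1 minus number 2 were 10.8 to 19.0. Liver minus gut ranged from 2.98 to 20.5 in CD4 and from -4.38 to 12.8 in CD8. STAT3ko minus WT ranged from -29.6 to 7.61 in CD4 and from -28.7 to 11.6 in CD8, STAT3koPD-1ko minus WT from -31.5 to 11.9 and from -24.4 to 15.9, and STAT3koPD-1ko minus STAT3ko from -20.5 to 22.9 and from -15.6 to 24.2.

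The labels do not say what libraries of the same number share. The correlation of number 1 minus number 2 across clonotypes was -0.03 to 0.11 between liver and gut and -0.05 to 0.00 between genotypes, where few clonotypes are shared, so it does not show whether numbers mark a batch. Apart from CD4 gut, the replicate block moved no adjusted p across the threshold. Fractions without counts give no detection limit, and depth is unknown.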
